A study of Rattus norvegicus with 6 samples.

Results

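The interferon regulatory factors are a family of transcription factors, and 8 of their genes (Irf1, Irf2, Irf3, Irf4, Irf5, Irf7, Irf8 and Irf9) were measured here among 18166 genes in cerebral arteries of male rats. A member was a gene of the family with a probe set annotated to it alone, and where a gene had several such probe sets the one with the highest mean over all 6 arrays was kept. Each of the 8 had 1 such probe set. One group of arteries came from rats with subarachnoid haemorrhage (SAH), bleeding between the membranes that wrap the brain, and were taken at 6 hours (arrays 1, 4 and 5). The other came from sham-operated rats (arrays 6, 7 and 8), for which the labels give no time of their own. Neither the rat strain, nor the way in which the bleed was made, nor whether an array held arteries of 1 rat or of several is given in the sources used here, so p-values measure the spread between these arrays. The arrays were of the Affymetrix Gene ST type, and the values are log2 expression values made by the authors with RMA, so a difference of 1 is a doubling.

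Every interferon regulatory factor carries a DNA-binding domain with conserved tryptophans, through which it reads repeats of GAAA in the promoters of interferon-responsive genes. IRF3 and IRF7 are phosphorylated downstream of receptors for viral nucleic acids and switch on the type I interferon genes. IRF9 joins STAT2 in the complex that answers type I interferon, while the Irf1 gene is itself induced by interferon gamma, and IRF2 competes with IRF1 for the same DNA sites. IRF4, IRF5 and IRF8 are best known from leukocytes. In an artery such signals can be carried by endothelium, smooth muscle and fibroblasts as well as by immune cells in the wall and the surrounding membranes, and array values from whole tissue cannot tell fewer cells of a type from less RNA per cell.

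The promoters of the members are shown because short elements in promoters are the known route by which interferon signals reach such genes. Windows of 300 bases (250 before to 50 after the transcript start, RefSeq, rat assembly GRCr8) were matched for 7 of the 8 members; Irf2 was not matched. 3 motifs were searched on both strands: the core of the interferon-stimulated response element, GAAANNGAAA, the gamma-activated site bound by STAT dimers, TTCNNNGAA, and an NF-kappaB site, GGGNNNTTCC. Of 33469 promoters in the table, 3.92% held the first, 8.87% the second and 5.37% the third. Among the 7 members, Irf7 held the first, Irf1, Irf8 and Irf9 held the second, Irf3 held the third, and Irf4 and Irf5 held none of these letters in the window. In the members' windows no match overlapped another. A match describes the letters and is not a measured binding site. Each line below runs 5′ to 3′ on the gene's own strand, with the match in capitals and up to 12 bases on each side.
Irf7, chr1:205800071-205800104, minus strand, response element read on the opposite strand, first base 69 before the start: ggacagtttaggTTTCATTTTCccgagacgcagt
Irf9, chr15:33065725-33065757, plus strand, gamma-activated site, first base 99 before the start: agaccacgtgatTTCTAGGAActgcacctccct
Irf1, chr10:38417781-38417813, plus strand, gamma-activated site, first base 142 before the start: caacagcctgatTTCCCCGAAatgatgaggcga
Irf8, chr19:65699092-65699124, plus strand, gamma-activated site, first base 180 before the start: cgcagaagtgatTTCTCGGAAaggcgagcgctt
Irf8, chr19:65699111-65699143, plus strand, gamma-activated site, first base 161 before the start: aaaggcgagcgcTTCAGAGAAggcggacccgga
Irf3, chr1:104616567-104616600, plus strand, NF-kappaB site read on the opposite strand, first base 29 before the start: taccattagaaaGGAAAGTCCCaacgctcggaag

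The whole windows of Irf7 and Irf9 are given as well, since these were the members whose expression passed the test described next. The Irf7 window lies at chr1:205799974-205800273 on the minus strand and the Irf9 window at chr15:33065586-33065885 on the plus strand. Both lie inside the annotated span of their gene (chr1:205796956-205800543 and chr15:33065422-33071881), so in each case the start used by the promoter table lies downstream of the outermost annotated start.
Irf7: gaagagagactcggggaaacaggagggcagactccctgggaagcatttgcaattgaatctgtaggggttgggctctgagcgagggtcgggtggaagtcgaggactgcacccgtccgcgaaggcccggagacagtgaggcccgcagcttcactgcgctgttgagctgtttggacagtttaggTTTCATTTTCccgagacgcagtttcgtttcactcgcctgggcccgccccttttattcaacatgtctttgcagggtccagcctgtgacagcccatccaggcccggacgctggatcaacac
Irf9: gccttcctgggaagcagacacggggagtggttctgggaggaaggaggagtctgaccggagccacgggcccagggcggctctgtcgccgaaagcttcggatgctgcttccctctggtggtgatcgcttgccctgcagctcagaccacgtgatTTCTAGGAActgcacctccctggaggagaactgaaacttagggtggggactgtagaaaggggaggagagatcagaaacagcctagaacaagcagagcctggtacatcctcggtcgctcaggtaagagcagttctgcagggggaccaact

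After SAH, 2 of the 8 members rose and none fell. Irf7 was 5.83-fold and Irf9 1.85-fold higher after SAH, and the other 6 did not pass the threshold, which was a Benjamini-Hochberg adjusted p under 0.05 over all 36495 probe sets in limma's test. At an unadjusted p under 0.05 there were 5 members higher and none lower, where 8.16% of all genes were higher and 10.5% lower by that measure. Over all 18166 genes 1.29% were called, 0.963% higher and 0.33% lower. The median log2 difference, SAH minus sham, was 0.59 over the 8 members and -0.01 over all genes. For 4 members (Irf7, Irf9, Irf2 and Irf5) all SAH arrays lay above all sham arrays, which held for 11.4% of all genes. For Irf3 all SAH arrays lay below all sham arrays, as for 15.4% of genes, and for Irf1, Irf8 and Irf4 the groups overlapped. In all 6 members with a difference above 0, SAH array 1 had the lowest of the SAH values. Array 1 was also lowest in 87.4% of the 175 genes called higher and in 44.6% of the 8599 genes with a difference above 0. The count of 2 members became 3 without SAH array 1, when Irf2 passed, and 1 on leaving out any one of the other 5 arrays (SAH 4, SAH 5, sham 6, sham 7 or sham 8), when Irf9 did not pass.

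**Figure D1:**
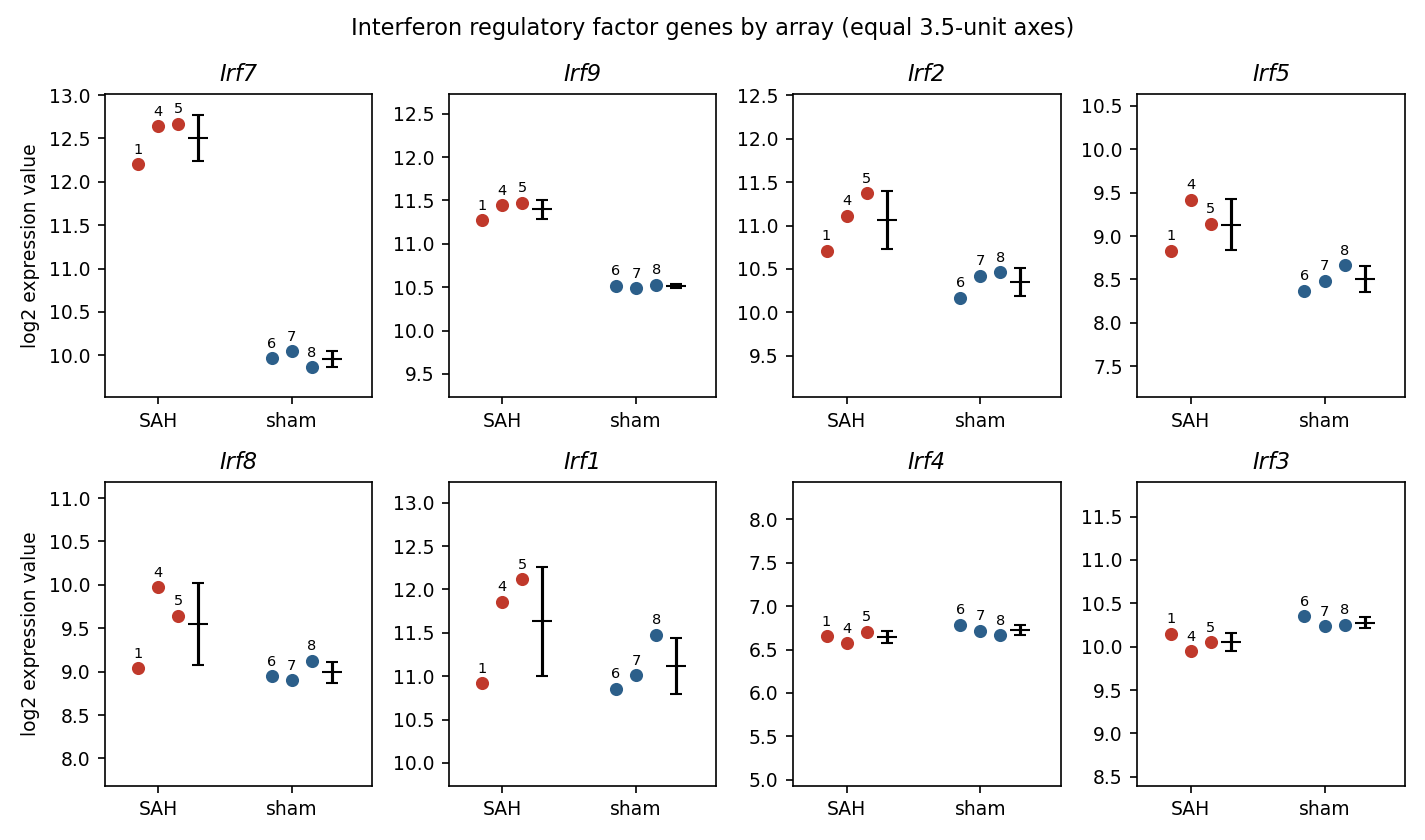
Log2 expression value (vertical axis, the same span of log2 units in every panel) of the 8 interferon regulatory factor genes in SAH arteries (left, red) and sham arteries (right, blue). Points are single arrays with their array numbers, and the bar beside each group is the mean ± SD of 3 arrays. Irf7 at 12.20 to 12.67 in SAH arrays against 9.87 to 10.05 in sham arrays stands furthest apart, and Irf9 has the narrowest sham group.

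Irf7, known as the amplifier of the type I interferon response because interferon itself induces it, showed the largest difference in the family. Its log2 values (probe set 17638314) were 12.20, 12.64 and 12.67 in SAH arrays 1, 4 and 5, against 9.97, 10.05 and 9.87 in sham arrays 6, 7 and 8. The groups were far apart, and the lowest SAH array stood more than 2 log2 units above the highest sham array. The mean was 12.51 ± 0.26 in SAH arteries and 9.96 ± 0.09 in sham arteries (SD, n = 3 each), a log2 difference of 2.54 ± 0.15 (SE; 95% interval 2.19 to 2.89; limma adjusted p = 0.00221). Of all 18166 genes, 14 had a larger difference. The call of Irf7 held in all 17 alternative settings tried, with differences of 2.46 to 2.69 and adjusted p of 0.00068 to 0.029 in limma's test.

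Irf3, the closest relative of Irf7, is known to be present in most cells before any signal and to be controlled mainly by phosphorylation. Its values (probe set 17616188) were 10.15, 9.95 and 10.05 in SAH arrays, against 10.35, 10.23 and 10.25 in sham arrays. Every SAH array was thus lower than every sham array, but by little. The difference of -0.23 ± 0.10 (SE; 95% interval -0.46 to 0.01) did not pass (limma adjusted p = 0.366).

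Irf9, the DNA-binding subunit of the complex with STAT2, was the other member that rose. Its values (probe set 17698887) were 11.27, 11.45 and 11.48 in SAH arrays, against 10.52, 10.49 and 10.53 in sham arrays. The sham arrays lay within 0.041 log2 units of each other, the narrowest group of any member. The means were 11.40 ± 0.11 in SAH arteries and 10.51 ± 0.02 in sham arteries (SD, n = 3 each), a difference of 0.89 ± 0.10 (SE; 95% interval 0.65 to 1.12; limma adjusted p = 0.018). With one array left out the difference was 0.85 to 0.95, yet the call held only without SAH array 1 (limma adjusted p = 0.0107) and was lost on leaving out SAH 4 (0.0929), SAH 5 (0.0808), sham 6 (0.123), sham 7 (0.115) or sham 8 (0.0678). Stat2, the partner of IRF9, stood at 12.05, 12.27 and 12.21 in SAH arrays, against 10.91, 11.08 and 10.84 in sham arrays. It rose 2.35-fold (log2 difference 1.23 ± 0.11, SE; limma adjusted p = 0.00786). Its call was lost without SAH array 4 or sham array 6, and with a covariate for neutrophil markers.

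Irf1 and Irf2 form the pair that shares DNA sites, with IRF1 known as an activator and IRF2 as its antagonist. Irf2 (probe set 17711679) read 10.71, 11.11 and 11.38 in SAH arrays, against 10.17, 10.42 and 10.46 in sham arrays. The groups did not overlap, and the difference was 0.71 ± 0.18 (SE; 95% interval 0.28 to 1.15; limma adjusted p = 0.154). Irf1 (probe set 17645837) read 10.92, 11.86 and 12.12 in SAH arrays, against 10.86, 11.01 and 11.48 in sham arrays. SAH array 1 lay inside the sham range and sham array 8 well above the other sham arrays. The mean was 11.63 ± 0.63 in SAH arteries and 11.12 ± 0.32 in sham arteries (SD, n = 3 each), and the difference of 0.52 ± 0.32 (SE; 95% interval -0.25 to 1.28) had an adjusted p of 0.536 in limma's test. Without SAH array 1 the differences were 0.89 for Irf2 (limma adjusted p = 0.0425) and 0.87 for Irf1 (limma adjusted p = 0.104).

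**Figure D2:**
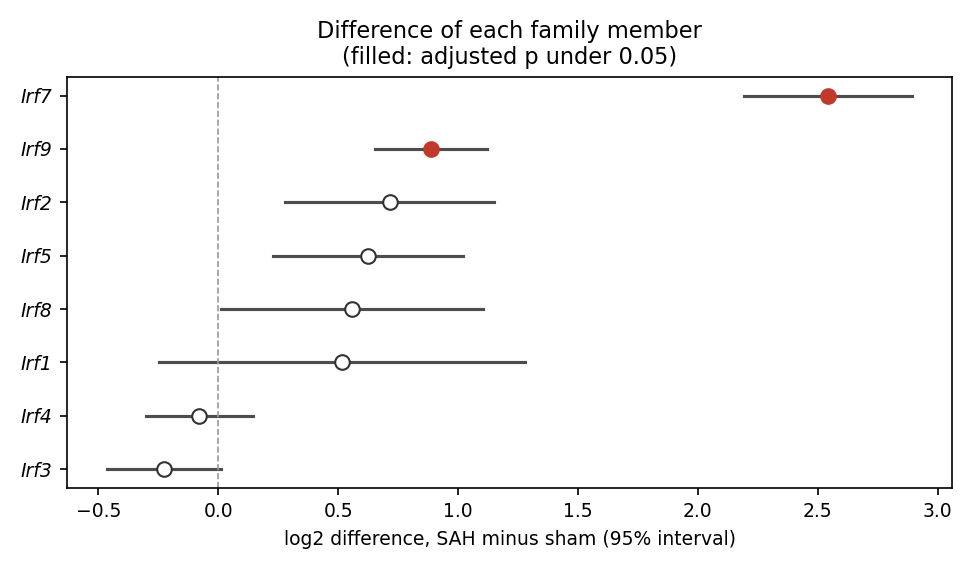
Log2 difference, SAH minus sham (horizontal axis), of each family member with limma's 95% interval; filled points have an adjusted p under 0.05. Irf7 at 2.54 and Irf9 at 0.89 are filled, and the interval of Irf1 (-0.25 to 1.28) is the widest.

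Of the members known from leukocytes none passed the test. Irf5, which drives inflammatory cytokine genes in macrophages, read 8.83, 9.42 and 9.14 in SAH arrays (probe set 17782073), against 8.37, 8.49 and 8.66 in sham arrays. Its groups did not overlap, and its difference of 0.63 ± 0.17 (SE; 95% interval 0.23 to 1.02) did not pass (limma adjusted p = 0.168). Irf8, which directs the making of monocytes, macrophages and dendritic cells, read 9.04, 9.97 and 9.64 in SAH arrays (probe set 17730667), against 8.95, 8.90 and 9.13 in sham arrays. SAH array 1 lay below sham array 8 while the other SAH arrays lay above all sham arrays, and the difference was 0.56 ± 0.23 (SE; 95% interval 0.01 to 1.105; limma adjusted p = 0.335). Irf4, needed by plasma cells and alternatively activated macrophages, read 6.66, 6.57 and 6.71 in SAH arrays (probe set 17719171), against 6.79, 6.72 and 6.67 in sham arrays. It was below the median of all tested probe sets on every array, the one dim member, and its difference was -0.08 ± 0.09 (SE; 95% interval -0.30 to 0.14; limma adjusted p = 0.766).

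Within an array, the distance between 2 members can be set against the same distance in other arrays. 6 pairs were compared in this way, chosen after their values were seen, each with an exact two-sided permutation test over the 6 arrays whose smallest possible p is 0.1. The response of Irf7 exceeded that of Irf3 by 2.77 log2 units and that of Irf9 by 1.66, and that of Irf5 exceeded that of Irf3 by 0.85 (exact p = 0.1 for each, 0.2 after Benjamini-Hochberg adjustment over the 6 pairs). For Irf2 against Irf1 the responses differed by 0.20 (exact p = 0.6), for Irf9 against Irf8 by 0.33 (exact p = 0.3) and for Irf8 against Irf4 by 0.64 (exact p = 0.2). In array 1, Irf2 stood 0.36 above its sham mean and Irf1 -0.20 relative to its own, whereas in array 5 they stood at 1.02 and 1.00.

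Upstream of IRF3 and IRF7, 4 of 15 measured activator genes rose and none fell. Over all genes 0.963% were called higher and 0.33% lower. The 4 that rose were nucleic acid sensors, and whether their rise acted on IRF3 or IRF7 was not tested. Rig1, the cytosolic RNA sensor also written RIG-I, was 5.12-fold higher (limma adjusted p = 0.00189), Ifih1, another RNA sensor known as MDA5, 4.80-fold (0.0304), Tlr3, the endosomal receptor for double-stranded RNA, 2.71-fold (0.00701), and Tlr7, the endosomal receptor for single-stranded RNA, 1.81-fold (0.0446). The kinases that phosphorylate IRF3 and IRF7 did not pass: Tbk1 differed by 0.46 ± 0.23 and Ikbke by 0.12 ± 0.11 (SE), with adjusted p of 0.417 and 0.703. Of the 15, 11 had a difference above 0 and 4 below. By an unadjusted p under 0.05 in limma's test, 6 were higher and 1 was lower, where 8.16% of all genes were higher and 10.5% lower. The median difference of the 15 was 0.36. The number past the threshold was 4 without SAH array 1, 1 without sham array 6 or sham array 7, and 2 on leaving out any one of the other 3 arrays.

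None of 8 measured interferon genes, which include type I interferons and interferon gamma, passed in either direction, and none had an unadjusted p under 0.05 in limma's test. Ifnb1, the first type I interferon made in most cells, read 6.08, 6.07 and 6.01 in SAH arrays, against 6.17, 6.08 and 6.13 in sham arrays. Its difference was -0.08 ± 0.09 (SE; 95% interval -0.29 to 0.14). Ifng, interferon gamma, differed by 0.16 ± 0.14 (SE; 95% interval -0.17 to 0.49), Ifna1 by 0.30 ± 0.28 and Ifnl3 by 0.17 ± 0.09. Only 2 of the 8 probe sets were above the median of their array on at least 3 arrays. Among 9 receptors and partners of IRF9, Stat2 rose and the other 8 did not pass, where 0.963% of all genes were called higher. Il10rb, a shared receptor chain, differed by 0.43 ± 0.13, Jak2 by 0.40 ± 0.23 and Ifngr1 by 0.15 ± 0.10 (SE).

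Known targets of the IRF9 complex had the highest median difference of the 9 lists of genes around the family. Of 17 measured, 15 rose and none fell, where 0.963% of all genes were called higher. The median log2 difference was 2.33, against -0.01 over all genes. Rsad2, the antiviral enzyme viperin, read 12.25, 12.88 and 12.82 in SAH arrays, against 8.82, 9.14 and 9.15 in sham arrays. The groups of Rsad2 were 3.61 ± 0.19 log2 units (SE) apart. Cmpk2, a mitochondrial nucleotide kinase, differed by 3.32 ± 0.15, Isg15, a ubiquitin-like modifier, by 3.23 ± 0.20 and Oas2, an RNA-sensing synthetase, by 1.72 ± 0.09 (SE), with limma adjusted p between 0.00189 and 0.00251 for these 4. Relative to the sham mean, the mean over the 17 was 2.03, 2.48 and 2.51 on SAH arrays 1, 4 and 5, against -0.08, 0.08 and 0.00 on sham arrays 6, 7 and 8. With one array left out, 10 (without sham array 6) to 16 (without SAH array 1) passed. Promoter windows were matched for 9 of the 17, and 6 of these 9 held the response element core GAAANNGAAA, as did 3.92% of all promoters. The windows of Cmpk2, Mx1 and Oasl held none of the 3 motifs. Mx1 and Oasl differed by 3.26 ± 0.33 and 2.98 ± 0.25 (SE). The stretches of Ifit3, Rsad2 and Xaf1 are shown for comparison with that of Irf7 above, again with the match in capitals.
Ifit3, chr1:241527270-241527303, plus strand: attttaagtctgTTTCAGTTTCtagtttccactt
Rsad2, chr6:48788246-48788279, minus strand: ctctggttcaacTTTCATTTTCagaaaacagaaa
Xaf1, chr10:57415912-57415945, plus strand: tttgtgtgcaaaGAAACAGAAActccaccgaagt

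Of 18 known targets of IRF1, 6 rose and none fell, with a median difference of 1.35, where 0.963% of all genes were called higher. Cxcl9, a chemokine for activated T cells, was 14.9-fold higher (limma adjusted p = 0.0106), Cxcl11, which binds the same receptor, 2.97-fold (0.0299), Psmb9, a subunit of the immunoproteasome, 2.67-fold (0.00946) and Tap1, a peptide transporter for antigen presentation, 2.66-fold (0.0242). The SAH arrays of 16 of the 18 lay wholly above the sham arrays, which held for 11.4% of all genes. Array 1 was again the lowest SAH array, with the mean over the list at 0.96, 1.75 and 1.80 on SAH arrays 1, 4 and 5, against -0.17, -0.13 and 0.31 on sham arrays 6, 7 and 8. The number called was 15 on leaving out SAH array 1, 4 on leaving out sham array 8, 1 on leaving out sham array 7, and 0 on leaving out SAH 4, SAH 5 or sham 6. At an unadjusted p under 0.05 in limma's test it was 17 with all arrays, where 8.16% of all genes were higher by that measure. Neutrophil markers, whose levels by array are given further on, were also high in sham array 8. With their mean as a covariate none of the 18 passed, while the median difference was 1.12. That covariate also lowered the number of calls over all genes, from 235 to 46. The part of neutrophil markers in the differences of these genes was not tested further.

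Genes tied to the leukocyte members gave few calls. None of 11 partners and targets of IRF8 passed, with 4 higher and none lower at an unadjusted p under 0.05 in limma's test. By that measure 8.16% of all genes were higher and 10.5% lower. Spi1, which encodes PU.1, the DNA-binding partner of IRF8 and IRF4, read 9.44, 9.36 and 9.55 in SAH arrays, against 8.87, 8.80 and 9.35 in sham arrays. Its difference was 0.45 ± 0.16 (SE; limma adjusted p = 0.278). Cybb, a subunit of the phagocyte oxidase, differed by 0.61 ± 0.14, P2rx4, an ATP-gated channel, by 0.43 ± 0.14 and Batf3, a dendritic cell transcription factor, by 0.43 ± 0.15 (SE), none of which passed.

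Of 9 partners and targets of IRF4 only Ccl22, a chemokine of macrophages and dendritic cells, passed, at 4.07-fold higher (limma adjusted p = 0.0381). It also passed without SAH array 1 or without sham array 8, and did not pass on leaving out any one of the other 4. Il10, an anti-inflammatory cytokine, differed by 0.61 ± 0.10, Batf, a partner of IRF4, by 0.63 ± 0.18 and Mrc1, the mannose receptor of resident macrophages, by -1.24 ± 0.39 (SE), with limma adjusted p of 0.0513, 0.189 and 0.218. Of the 9, 3 were higher and 1, Mrc1, was lower at an unadjusted p under 0.05 in limma's test. The shares over all genes were 8.16% and 10.5% by that measure, and 0.963% were called higher.

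None of 9 targets of IRF5 passed, with 1 higher and none lower at an unadjusted p under 0.05 in limma's test. That count is near the share of all genes, of which 8.16% were higher and 10.5% lower. The largest difference was that of Ccl5, a chemokine for T cells and monocytes, at 2.12 ± 0.34 (SE; limma adjusted p = 0.0545), and it passed without SAH array 1 or without sham array 8. Ccl4 and Ccl3, chemokines of activated macrophages, differed by 0.75 ± 0.53 and 0.70 ± 0.52, and Il12a by 0.21 ± 0.16 (SE). Relative to the sham mean the list averaged 0.10, 0.46 and 0.99 on SAH arrays 1, 4 and 5, against -0.41, -0.49 and 0.90 on sham arrays 6, 7 and 8, so sham array 8 was high here as it was for neutrophil markers.

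Among 11 cofactors and restraints of the family only Trim21, a ubiquitin ligase known to act on several of its members, passed, at 3.34-fold higher (limma adjusted p = 0.0214), and with one array left out it passed only without SAH array 1. It read 10.74, 11.39 and 11.45 in SAH arrays, against 9.32, 9.41 and 9.63 in sham arrays. Ube2l6, an enzyme of the ISG15 conjugation pathway, differed by 0.81 ± 0.15, Nr3c1, the glucocorticoid receptor, by 0.48 ± 0.16 and Irf2bpl, a relative of the IRF2 binding proteins, by -0.47 ± 0.10 (SE), and these did not pass. Of the 11, 4 were higher and 1, Irf2bpl, was lower at an unadjusted p under 0.05 in limma's test. Among all genes the shares were 8.16% and 10.5%. Over the 9 lists together 28 of 106 measured genes rose and none fell, where 0.963% of all genes were called higher. Of the 28, 15 were targets of the IRF9 complex and 6 targets of IRF1. The lists were chosen with earlier results of these data known, so the excess over all genes is no separate finding. The number past the threshold was 41 without SAH array 1 and 11 without sham array 6. With dim probe sets removed, 35 of 93 rose and 1, among the cofactors and restraints, fell.

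**Figure D3:**
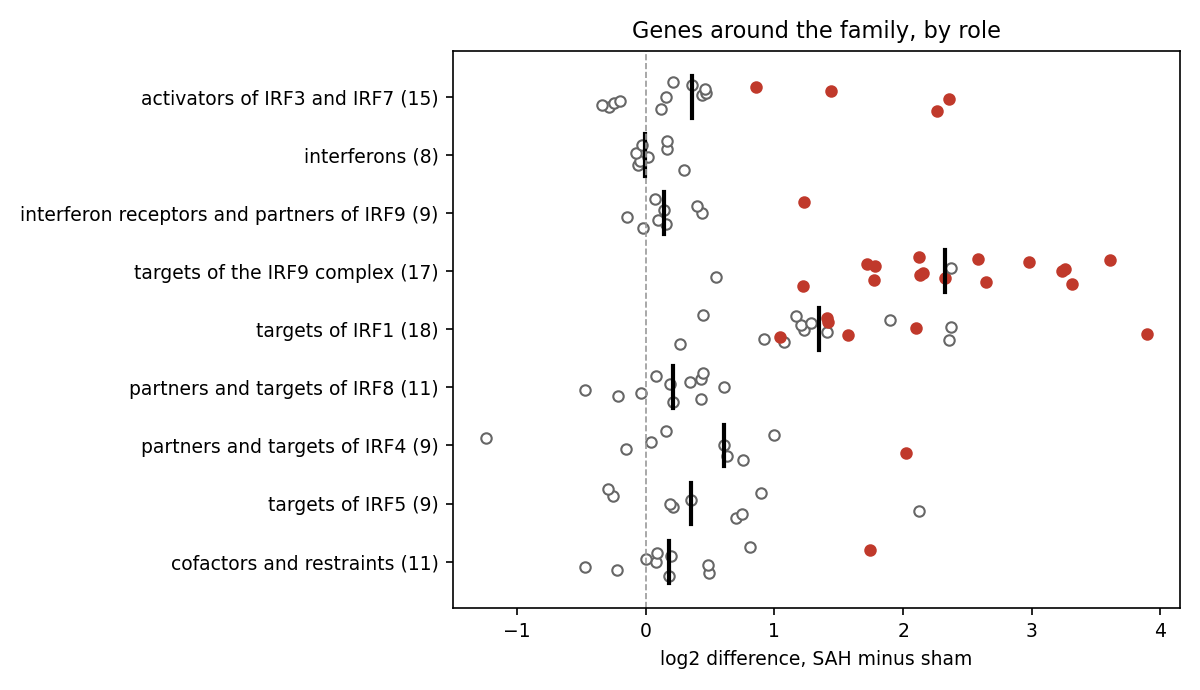
Log2 difference, SAH minus sham (horizontal axis), of the genes around the family, grouped by role, with the number measured in brackets. Each point is a gene, filled where its adjusted p was under 0.05, and the bar is the median of the list. The medians are 2.33 for targets of the IRF9 complex and 1.35 for targets of IRF1, against -0.00 for the interferons.

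The genes with the most similar course over the 6 arrays were sought for each member. The measure was the root mean square difference between log2 values set relative to each gene's own sham mean. Since the search used the same values as the test, a shared array pattern or test result follows from it and is no separate finding. Closest to Irf7 were Usp18, a protease that removes ISG15, at 0.081 log2 units, RT1-T24-3, of the rat MHC class I genes, at 0.10, and Rig1 at 0.15. Closest to Irf9 were Kdm4a, a histone demethylase, at 0.043, Pxylp1 at 0.071 and Tapbpl, a peptide editor for MHC class I, at 0.074, all of which also passed the test. Around Irf1 lay Cdkn1a, a cell cycle inhibitor, at 0.11, Vom1r71 at 0.11 and Irak2, a kinase of the interleukin-1 and Toll-like receptor pathway, at 0.13. All of these share with Irf1 a low SAH array 1, and Cdkn1a and Irak2 stood 0.43 and 0.53 above their sham means in sham array 8. The nearest genes of the other members were Pax1, Washc4 and Zmynd15 for Irf2, Gpsm2, Rras2 and Ighl8 for Irf5, Snx2, Bpnt1 and Ddx25 for Irf8, Syngr3, Txndc12 and Mustn1 for Irf3, and Dcaf7, Dusp23 and Muc1 for Irf4, at 0.019 to 0.086 log2 units, and none of these passed the test.

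**Figure D4:**
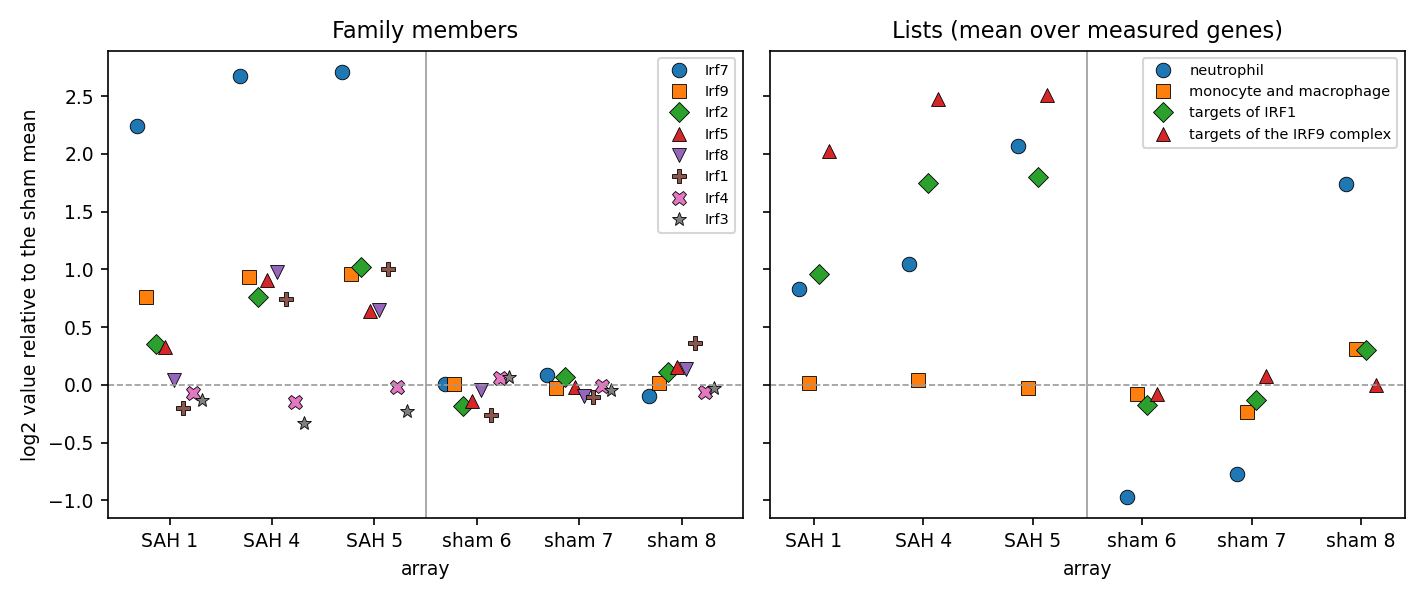
Log2 value relative to the sham mean (vertical axis) on each array (horizontal axis), for the 8 members (left panel) and for the mean over the measured genes of 4 lists (right panel). Sham array 8 stands 1.74 above the sham mean for neutrophil markers and 0.36 for Irf1, and SAH array 1 is the lowest SAH array for Irf7, Irf9, Irf2, Irf5, Irf8 and Irf1.

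Cell type markers were read beside these values. Markers of smooth muscle (6 of 6 measured), endothelium (7 of 7) and fibroblasts (7 of 7) lay above the array median on at least 3 arrays. So did 12 of 12 monocyte and macrophage markers and 7 of 10 neutrophil markers. It also held for 4 of 10 T and natural killer cell, 4 of 8 dendritic cell, 3 of 7 B cell and 1 of 3 erythroid markers. The measure thus does not set vessel wall cells apart from leukocytes. Smooth muscle markers had a median difference of -0.28, and 1 of 6, Smtn, fell, where 0.33% of all genes were called lower. At an unadjusted p under 0.05 none of the 6 was higher and 3 were lower in limma's test. By that measure 8.16% of all genes were higher and 10.5% lower. For all 6 smooth muscle markers every SAH array lay below every sham array, as for 15.4% of all genes. The medians were -0.29 for endothelium and -0.19 for fibroblasts, where none passed in limma's test (1 and 0 higher and 2 and 0 lower at an unadjusted p under 0.05). Tagln, Vwf and Dcn, the brightest of these 3 lists, averaged 13.43, 11.46 and 13.05 in SAH arteries, against 13.58, 11.75 and 13.05 in sham arteries. Neutrophil markers varied widely: all 10 had a difference above 0, and none passed in limma's test (2 were higher and none lower at an unadjusted p under 0.05). Relative to the mean of the sham group their average was 0.83, 1.05 and 2.07 on SAH arrays 1, 4 and 5, against -0.97, -0.78 and 1.74 on sham arrays 6, 7 and 8. Their summed linear level ran from 5975 to 13612 in SAH arrays and from 1546 to 10803 in sham arrays, and Csf3r, the G-CSF receptor, read 10.65, 9.94 and 11.88 in SAH arrays, against 8.25, 8.33 and 10.45 in sham arrays. With the neutrophil mean as a covariate the difference of Irf7 was 2.55 (limma adjusted p = 0.026), that of Irf9 0.85 (0.0982), that of Irf1 0.13 (0.944) and that of Irf8 0.43 (0.713).

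Monocytes and macrophages are the cells in which Irf5 and Irf8 are best known. Of their 12 measured markers, 7 had a difference above 0 and 5 below, none passed in limma's test (1 higher and 3 lower at an unadjusted p under 0.05), and their summed linear level was 15651 to 17365 in SAH arrays and 12731 to 17297 in sham arrays. Of all genes, 8.16% were higher and 10.5% lower by that unadjusted measure. The 1 higher marker was Ccr2, at 1.86 ± 0.59 (SE). The 3 lower were Csf1r, the receptor that macrophages need to survive, at -0.50 ± 0.11, Mrc1 at -1.24 ± 0.39 and Cd163 at -1.29 ± 0.44 (SE). Cd68, a lysosomal marker, differed by 0.37 ± 0.18 and Lyz2, the brightest of the list, by 0.42 ± 0.18 (SE). Relative to the sham mean the average over the 12 was 0.02, 0.04 and -0.03 on SAH arrays 1, 4 and 5, against -0.08, -0.24 and 0.31 on sham arrays 6, 7 and 8. This average joins markers that moved in opposite directions and hardly differed between the groups. A fit with it as a covariate therefore could not move the members' differences and says nothing about cell makeup. In that fit Irf9 had a difference of 0.88 (limma adjusted p = 0.0526).

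Markers of B cells, where Irf4 and Irf8 are also active, gave 1 called gene of 7, where 0.963% of all genes were called higher. It was Blnk at 1.86-fold higher, just past the threshold (limma adjusted p = 0.0496). The median was 0.07, and Cd79a differed by 0.05 ± 0.10 (SE). At an unadjusted p under 0.05 in limma's test 2 of the 7 were higher and none lower. Of 10 T and natural killer cell markers, 8 dendritic cell markers and 3 erythroid markers none passed in limma's test, with medians of 0.31, 0.06 and 0.34. At an unadjusted p under 0.05 there were 5, 2 and 1 higher and none lower in limma's test. The shares over all genes were 8.16% higher and 10.5% lower. The brightest of these lists, Cd4, Itgax and Hbb-b1, differed by -0.29 ± 0.19, 0.01 ± 0.15 and 0.26 ± 0.23 (SE). Cd4 was the 1 T and natural killer cell marker below 0, while the other 9 were above. For 6 of these 10 markers every SAH array lay above every sham array, as for 11.4% of all genes. The part of cell makeup in the members' differences was not tested beyond the fit with neutrophil markers. Between arrays, log2 values correlated across probe sets with r of 0.970 to 0.991, probe sets not being independent replicates. Of the labelling controls, RNAs added before labelling, dap, phe and thr were highest on SAH arrays 4 and 5 and lowest on SAH array 1, and lys was not lowest there. The dap control read 6.82, 7.87 and 7.54 on SAH arrays 1, 4 and 5, against 7.15 to 7.31 on sham arrays, and their part in the low values of array 1 was not tested.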

How the data were processed

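Affymetrix Gene ST arrays of cerebral arteries from 3 SAH and 3 sham samples were analysed from the deposited table. Per the submitters' processing notes, the authors made the log2 values with Affymetrix Expression Console 1.1.2 by RMA. These values were used as deposited. Of 36685 probe sets, 190 controls were left out and 36495 tested; GEO's platform annotation, updated through RefSeq tables, gave 18511 probe sets 1 gene, 575 several and 17409 none.

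Each probe set was fitted by lmFit and eBayes (limma 3.58.1, R 4.3.3; two-sided), SAH minus sham, with p Benjamini-Hochberg adjusted over all tested probe sets, and called at an adjusted p under 0.05. The script was tested on simulated data. The members and lists were chosen with earlier results of these data known. The text names all members, up to 4 genes of smallest p per list plus Stat2, Tbk1, Ikbke and Spi1 (1 further gene is not reported here), the 3 nearest genes per member and the brightest marker per cell type list. Smtn, Blnk, Csf1r, Cd68, Ccr2 and Cd163, and Ifit3, Xaf1, Mx1 and Oasl for their promoters, were added after their values were seen. Alternatives covered a filter on dim probe sets, normalization, limma options, marker covariates, thresholds and each array left out. Arrays give no counts, so their number limits the precision.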

Additional observations from a re-analysis of the deposited data

How the results depend on the processing

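Irf7 was called in all 17 alternatives, and no member's difference changed sign in any alternative run for it (16 for Irf4, 17 for the others). Against 2 with all arrays, the number of members called was 1 to 3 with one array left out, 1 with a covariate for neutrophil markers, 1 with a covariate for monocyte and macrophage markers, and 1 with a minimum log2 difference of 1. Irf9 lost its call on its adjusted p in 7 of these (range over all alternatives 0.00539 to 0.123 in limma's test) and under the minimum difference. Of 106 pathway genes 28 were called, against 11 to 41 with one array left out and 14 with the neutrophil covariate. Of all genes 235 were called, against 29 (without sham array 6) to 670 (without SAH array 1), 672 with dim probe sets removed (359 higher and 313 lower of 11323), 363 with trend and robust options, 373 with array weights, 380 adjusted over gene probe sets alone, 46 with the neutrophil covariate, 93 with the monocyte covariate, 530 at an adjusted p under 0.10 and 155 with the minimum difference. A changed threshold alters the count by definition, and why the counts changed in the other settings was not tested. No paired analysis was possible because the groups share no array numbers. Irf4 and most interferon probe sets lay below the array median, which limits what their values can show.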
